A study of Sus scrofa with 12 samples.

Results

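Nuclear genes for the subunits of respiratory complexes II, III and IV and of the ATP synthase (complex V), together with the carrier cytochrome c, were followed in the longissimus dorsi, the loin muscle, of Iberian pigs. The set was defined by name and held 41 symbols, and 31 of them had a row among the 25880 genes of the count tables. No row carried the symbols UQCRB, UQCRH, COX6B1, COX6C, ATP5F1B, ATP5F1E, ATP5PD, ATP5MC2, ATP5MF and ATP5MG, and these 10 genes were not analysed here. All 31 others passed the filter on low counts and were tested among 13373 genes. The pigs were castrated males of 1 closed commercial population, fattened outdoors on acorns and grass, and 1 RNA-seq library was made from each. The High MB group was 6 pigs with high estimated breeding values for muscle myoglobin content (0.159 to 0.206) and 2.376 to 2.559 mg/g of myoglobin, and the Low MB group was 6 pigs with low breeding values (-0.248 to -0.149) and 1.226 to 1.580 mg/g. Breed, sex and feeding were shared by both groups, no pig was an untreated control, and the age of each pig is not given in the labels.

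Gene counts summed to between 38914271 and 91318334 per pig, and 5 libraries were over 50000000 (High MB pigs 4 and 6, Low MB pigs 1, 5 and 6). The 6 skeletal muscle markers with a row (ACTA1, CKM, DES, NEB, MYBPC2 and PYGM) summed to between 44654 and 134390 CPM (counts scaled to library size with the TMM factor) and were at 0 in no pig. Some values below are also given without 1 or the other of 2 libraries. High MB pig 2 had the lowest skeletal muscle sum and the highest sum over 5 macrophage markers (103 CPM, against 19.9 to 41.6 CPM over the Low MB pigs), and Low MB pig 6 had low values of the subunit genes. Dixon's test for a single outlying pig, run within each group on the 31 genes and the 3 isoform ratios, passed its critical value in 0 of 68 cases, Low MB pig 6 included. It takes 6 values of 1 gene or ratio at a time, so it cannot judge a pig that is low in many genes together. Counts from whole muscle cannot tell fewer cells or fibres of a type from less RNA per cell.

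The mitochondrial respiratory chain passes electrons from succinate through complex II, or from NADH through complex I, to ubiquinone, complex III, cytochrome c and complex IV, which reduces oxygen to water. Complexes III and IV pump protons across the inner membrane, and the ATP synthase makes ATP from the return of these protons. All subunits of complex II are encoded in the nucleus, whereas the others are built from nuclear and mitochondrially encoded subunits, and oxidative slow-twitch fibres, which are also rich in myoglobin, hold more mitochondria than glycolytic fast-twitch fibres.

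RefSeq's annotation of Sscrofa11.1, the build the counts were made on, held 20 of the 31 genes under their symbol or an older one, and the 300 bases from 250 before to 50 after each annotated start were read as its promoter. They were searched on both strands for short cores of the sites of regulators known for mitochondrial genes: GCATGCG for NRF1, CCGGAAG for ETS factors such as GABPA, and AAGATGG for YY1. The NRF1 core was found in 4 of the 20 promoters (20%, against 3.86% of all 19559 promoters), the ETS core in 9 (45% against 11%), the YY1 core in 4 (20% against 5.27%), and at least 1 of the 3 cores in 12 (60% against 18.5%). Such a match is a description of letters in a window and not a site shown to be bound. The promoters of ATP5ME and ATP5PO are shown because each holds an NRF1 and a YY1 core, and ATP5ME was the gene with the largest fold change. Those of COX7A1 and COX7A2 are shown because they belong to a muscle isoform and its general counterpart. Capitals mark the cores on either strand, and the sequences run 5′ to 3′ along the gene, which lies on the minus strand for the first 3.

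ATP5ME, chr8:113477-113776, minus strand: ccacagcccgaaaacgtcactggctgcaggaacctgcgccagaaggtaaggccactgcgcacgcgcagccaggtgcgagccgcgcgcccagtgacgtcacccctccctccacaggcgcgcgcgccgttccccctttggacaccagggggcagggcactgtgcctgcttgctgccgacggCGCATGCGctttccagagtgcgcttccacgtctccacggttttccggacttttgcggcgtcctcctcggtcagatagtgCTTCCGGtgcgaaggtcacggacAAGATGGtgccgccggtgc
ATP5PO, chr13:197519481-197519780, minus strand: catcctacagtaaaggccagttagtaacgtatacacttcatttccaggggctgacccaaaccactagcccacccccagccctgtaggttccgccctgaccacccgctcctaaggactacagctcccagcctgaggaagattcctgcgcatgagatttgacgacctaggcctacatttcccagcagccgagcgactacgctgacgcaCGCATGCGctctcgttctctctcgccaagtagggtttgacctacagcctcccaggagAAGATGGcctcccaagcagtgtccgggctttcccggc
COX7A1, chr6:45520672-45520971, minus strand: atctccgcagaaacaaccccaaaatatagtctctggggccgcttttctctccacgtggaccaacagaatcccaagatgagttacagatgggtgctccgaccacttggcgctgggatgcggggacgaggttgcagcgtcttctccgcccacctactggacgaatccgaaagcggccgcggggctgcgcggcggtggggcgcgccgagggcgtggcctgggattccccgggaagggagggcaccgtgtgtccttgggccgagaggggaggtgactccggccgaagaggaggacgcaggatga
COX7A2, chr1:90696496-90696795, plus strand: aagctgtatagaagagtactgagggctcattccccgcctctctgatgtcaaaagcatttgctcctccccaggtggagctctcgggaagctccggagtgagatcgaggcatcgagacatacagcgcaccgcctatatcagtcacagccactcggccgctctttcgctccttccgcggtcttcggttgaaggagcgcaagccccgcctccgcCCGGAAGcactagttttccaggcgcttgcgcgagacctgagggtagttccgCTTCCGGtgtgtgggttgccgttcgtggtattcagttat

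In ATP5ME and ATP5PO the NRF1 core was read on both strands of the same 8 bases, so its 2 matches overlap, and ATP5ME also held 1 ETS core. COX7A1 held none of the 3 cores, whereas COX7A2 held the ETS core at 2 places. A window without a match says only that these letters are not in it. Annotated starts may lie away from the true start of transcription.

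The comparison of High MB with Low MB pigs asked whether the transcripts of these complexes differed between muscles of high and low genetic merit for myoglobin. None of the 31 genes was called by edgeR's quasi-likelihood test, which asked for an adjusted p under 0.10 together with a log2 fold change beyond 0.58 in either direction. By that test 0 of 13373 genes (0%) were called. DESeq2, with the same limits, called 29 of 19158 genes (0.151%), none of them among the 31. The unadjusted p of edgeR was under 0.05 for 2 of the 31 genes, COX4I1 and ATP5ME, both higher in High MB, beside 1132 of all genes tested (8.46%), or 713 in that direction (5.33%). The log2 fold change (High MB minus Low MB) was positive for 28 of the 31 genes, against 46.9% of all genes tested. Its median was 0.13, against -0.02 over all genes, and it ran from -0.05 for COX6A1 to 0.39 for ATP5ME. Only SDHC, CYCS and COX6A1 had a negative value, and all 3 turned positive with upper quartile scaling and SDHC also with RLE size factors and with the 10 highest genes removed. Upper quartile scaling raised values over all genes too, to a median of 0.04 with 7646 of 13373 positive, against 6270 with the TMM factors. The 95% interval of the fold change lay within 0.58 of 0 on both sides for 24 of the 31 genes (51.8% of all genes), and in 0 of them did every High MB pig lie above every Low MB pig (0.232% of all genes) or below (0.194%).

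**Figure D1:**
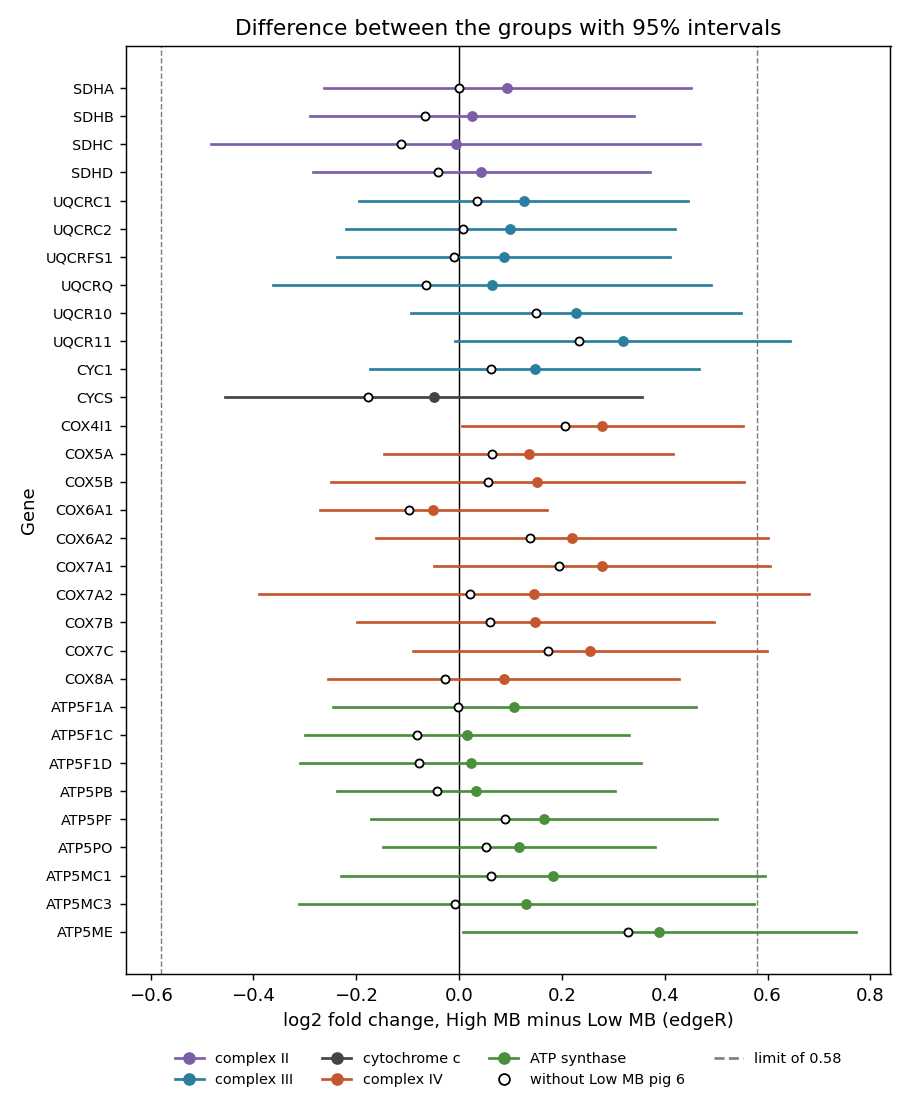
The log2 fold change of each of the 31 genes (High MB minus Low MB, edgeR, 6 pigs a group) is plotted as a filled point with its 95% interval, coloured by complex, with the value without Low MB pig 6 as an open point and the limit of 0.58 in each direction as dashed lines. The intervals of COX4I1 and ATP5ME leave out 0, those of the 29 others include it, and the open points lie to the left of the filled ones.

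The shared direction depended on 1 pig more than on any other. Low MB pig 6 had the lowest level of the 12 pigs in 29 of the 31 genes, against 6.64% of all genes tested, and the exceptions were COX7A2 (lowest in High MB pig 6) and ATP5ME (lowest in Low MB pig 2). Summed over the 31 genes it held 4385 CPM, whereas the other Low MB pigs held 6065 to 7948 CPM and the High MB pigs 5847 to 8404 CPM. Without this pig, 17 of 31 genes had a positive log2 fold change (46.7% of all genes tested), the median was 0.02 (all genes -0.02), the values ran from -0.18 for CYCS to 0.33 for ATP5ME, and 0 genes had an unadjusted p-value under 0.05 by edgeR, the smallest being 0.0995 for ATP5ME. The highest level of a gene was most often in High MB pig 5 (13 genes), High MB pig 3 (11 genes) or Low MB pig 1 (4 genes). Leaving out any other single pig left between 22 and 31 genes with a positive value, the 22 without High MB pig 5. Over all genes tested those fits had from 6225 of 13496 to 6979 of 13485 positive.

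**Figure D2:**
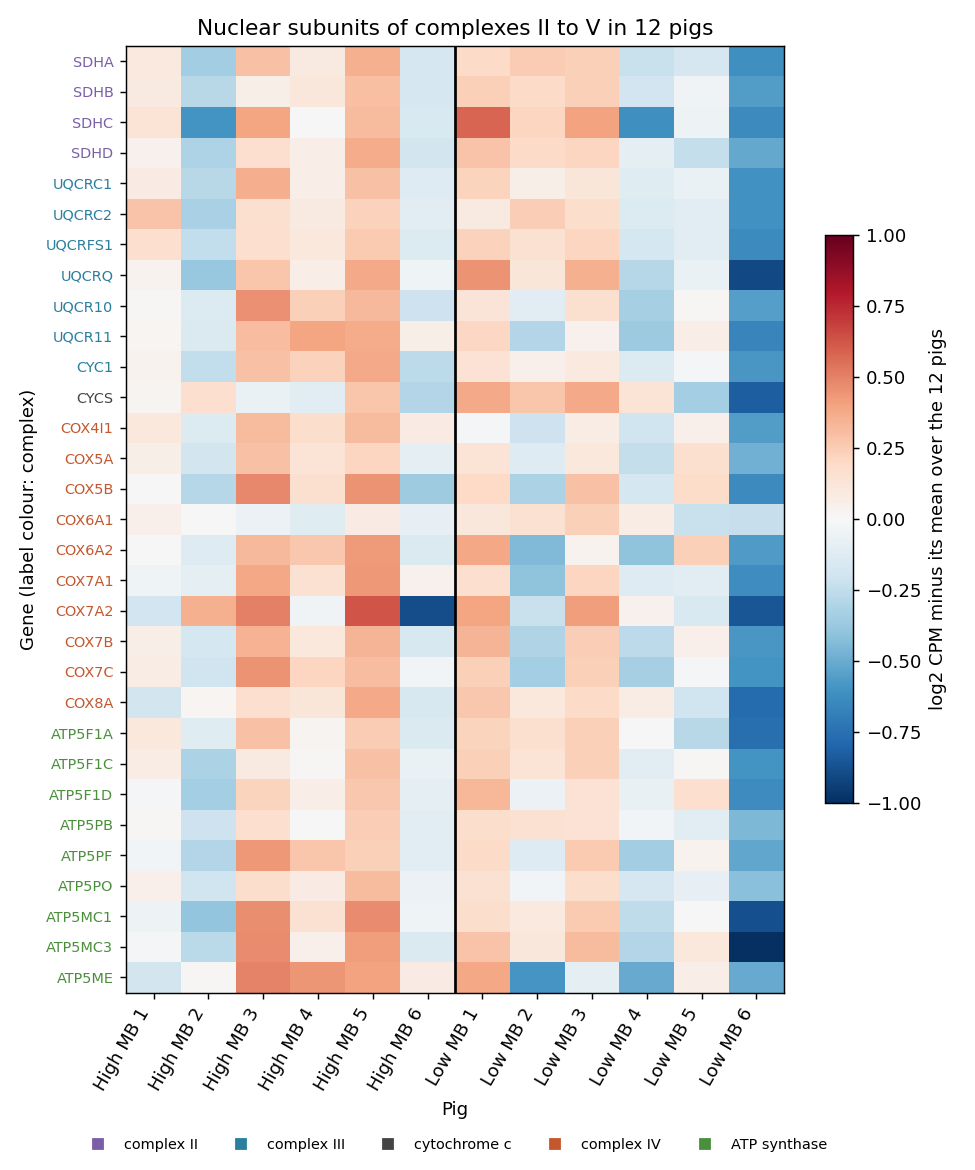
Colours give log2 CPM minus its mean over the 12 pigs for the 31 genes (rows, label colour by complex) in the 6 High MB pigs (left of the line) and the 6 Low MB pigs (right). The column of Low MB pig 6 is blue throughout, those of High MB pigs 3 and 5 are red in nearly all rows, and High MB pig 2 and Low MB pig 4 are blue in most.

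Differences between the groups were also computed within the 5 deep libraries (over 50000000 counts, 2 of them High MB) and within the 7 standard ones (4 of them High MB). The median log2 fold change of the 31 genes was 0.13 in the first and 0.12 in the second, with 29 and 24 genes positive, and 22 genes had the same sign in both. Over all genes tested the medians were 0.014 and 0.003, with 7539 of 14465 and 6848 of 13546 positive. Low MB pig 6 is one of the deep libraries.

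Complex II, succinate dehydrogenase, oxidises succinate and feeds the electrons into ubiquinone. Its 4 genes had a median log2 fold change of 0.03, with 3 positive and a smallest adjusted p of 0.902 (edgeR), and without Low MB pig 6 the median was -0.05 and 0 were positive. Without High MB pig 2 the median was 0.12 and 4 were positive. SDHA, the flavoprotein with the succinate site, was the highest of them in CPM, at 277, 375 and 451 CPM (lowest, median and highest) in the High MB pigs and 230, 357 and 421 CPM in the Low MB pigs. The ranges overlapped over most of their length, and the lowest pig was Low MB pig 6. For SDHA the log2 fold change was 0.09 ± 0.17 (SE, n = 6 a group, edgeR adjusted p = 0.902). SDHB, the iron-sulfur subunit, and the membrane anchors SDHC and SDHD had values of 0.03, -0.0066 and 0.04. SDHC was the most variable of the 4, from 112 CPM in Low MB pig 6 to 261 CPM in Low MB pig 1, and the spread within the Low MB group alone covered the whole High MB range.

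Complex III, the cytochrome bc1 complex, passes electrons from ubiquinol to cytochrome c. All 7 of its genes had a positive log2 fold change, with a median of 0.13 and a smallest edgeR adjusted p of 0.589. Of the 7, 5 were positive when Low MB pig 6 was left out, with a median of 0.04, and 7 when High MB pig 2 was left out, with a median of 0.21. UQCR11, a small subunit, was at 87.9, 111 and 128 CPM (lowest, median and highest) in the High MB pigs and at 61.5, 89.6 and 112 CPM in the Low MB pigs. The 3 highest pigs were High MB pigs 3, 4 and 5 and the 3 lowest Low MB pigs 2, 4 and 6, with the other 6 pigs interleaved. For UQCR11 the log2 fold change was 0.32 ± 0.15 (SE, n = 6 a group), with an unadjusted p of 0.0549 and an adjusted p of 0.589 by edgeR. Without Low MB pig 6 it was 0.23.

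UQCR10, another small subunit, was at 78.7, 99.6 and 125 CPM in the High MB pigs and at 62.1, 88.3 and 102 CPM in the Low MB pigs. High MB pigs 3, 4 and 5 again lay above all Low MB pigs, and the other 3 lay among them. UQCR10 had a log2 fold change of 0.23 ± 0.15 (SE, n = 6 a group, edgeR adjusted p = 0.678). CYC1, cytochrome c1, which hands the electron to cytochrome c, was at 180, 237 and 280 CPM in the High MB pigs and 144, 218 and 239 CPM in the Low MB pigs. Its groups overlapped, with a log2 fold change of 0.15 ± 0.15 (SE, n = 6 a group, edgeR adjusted p = 0.811). It was 0.06 without Low MB pig 6, and that of UQCR10 was 0.15.

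UQCRC1, a core subunit, had the highest mean CPM of complex III, at 266, 338 and 413 CPM in the High MB pigs and 211, 321 and 375 CPM in the Low MB pigs. Both group ranges overlapped, and the log2 fold change was 0.13 ± 0.15 (SE, n = 6 a group, edgeR adjusted p = 0.845). The other core subunit UQCRC2, the Rieske iron-sulfur protein UQCRFS1 and the small subunit UQCRQ had log2 fold changes of 0.10, 0.09 and 0.06. Without Low MB pig 6 the values of UQCRC1, UQCRC2, UQCRFS1 and UQCRQ were 0.04, 0.0081, -0.0097 and -0.07. UQCRQ had the deepest drop in Low MB pig 6 of this complex, 101 CPM there against 154 CPM in the next lowest Low MB pig.

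Cytochrome c, encoded by CYCS, carries electrons from complex III to complex IV. It was at 261, 315 and 387 CPM (lowest, median and highest) in the High MB pigs and at 180, 368 and 416 CPM in the Low MB pigs. The median was thus higher in the Low MB group while the lowest pig was in that group too, and the ranges overlapped. CYCS had a log2 fold change of -0.05 ± 0.19 (SE, n = 6 a group, edgeR adjusted p = 0.961), and -0.18 without Low MB pig 6. The transcript of CYCS had 1 near copy elsewhere in the genome (at least 95% identity over at least 80% of its length), so its counts are uncertain.

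Complex IV, cytochrome c oxidase, is the terminal enzyme of the chain, and its catalytic core is encoded in the mitochondrial genome, with nuclear subunits around it. Of its 10 genes 9 had a positive log2 fold change, with a median of 0.15 and 1 unadjusted p under 0.05. Leaving out Low MB pig 6 gave 8 positive genes of 10, a median of 0.06 and 0 such p-values. Leaving out High MB pig 2 gave 9 positive genes, a median of 0.23 and 3 such p-values by edgeR (1391 of 13454 over all genes tested), with 0 called. COX4I1, the general isoform of the largest nuclear subunit, was at 326, 396 and 449 CPM (lowest, median and highest) in the High MB pigs and at 244, 334 and 379 CPM in the Low MB pigs. All High MB pigs but pig 2 lay above all Low MB pigs, although High MB pig 6 (379.8 CPM) exceeded Low MB pig 3 (378.8 CPM) by a margin far smaller than the spread within groups. COX4I1 had a log2 fold change of 0.28 ± 0.13 (SE, n = 6 a group), with a 95% interval of 0.0053 to 0.55, an unadjusted p of 0.0462 and an adjusted p of 0.578 by edgeR. The exact two-sided permutation test of its log2 CPM gave p = 0.0303, where 6 pigs against 6 can give no less than 0.00216. Without Low MB pig 6 the log2 fold change was 0.21, with an unadjusted p of 0.104 by edgeR.

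COX7A1, the heart and skeletal muscle isoform of subunit VIIa, was at 166, 189 and 239 CPM in the High MB pigs and at 115, 163 and 205 CPM in the Low MB pigs. Low MB pigs 2, 4, 5 and 6 lay below every High MB pig, and Low MB pigs 1 and 3 lay among the highest High MB pigs. COX7A1 had a log2 fold change of 0.28 ± 0.15 (SE, n = 6 a group, unadjusted p = 0.0902, adjusted p = 0.623, edgeR). Its general counterpart COX7A2 was at 10.8, 22.6 and 30.9 CPM in the High MB pigs and at 11.06, 19.3 and 26.8 CPM in the Low MB pigs. Here the lowest pig was High MB pig 6 and the next Low MB pig 6, and the standard deviation of log2 CPM was 0.56 in the High MB group, the largest of the 31 genes. COX7A2 had a log2 fold change of 0.15 ± 0.25 (SE, n = 6 a group, edgeR adjusted p = 0.899), and it was -0.24 within the deep libraries, to which High MB pig 6 belongs.

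COX6A2, the heart and skeletal muscle isoform of subunit VIa, was at 221, 268 and 328 CPM in the High MB pigs and at 165, 217 and 319.5 CPM in the Low MB pigs. Low MB pigs 2, 4 and 6 lay below all High MB pigs, and Low MB pig 1 lay above all but High MB pig 5. The log2 fold change was 0.22 ± 0.18 (SE, n = 6 a group, edgeR adjusted p = 0.748). COX6A1, the general isoform, was at 71.7, 76.7 and 82.8 CPM in the High MB pigs and at 66.5, 83.2 and 92.2 CPM in the Low MB pigs. It had the smallest spread of the 31 genes, the highest pig being 1.39 times the lowest, and the High MB range lay inside the Low MB range. Its log2 fold change was -0.05 ± 0.10 (SE, n = 6 a group, edgeR adjusted p = 0.918), with a 95% interval of -0.27 to 0.17.

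COX7C, a small nuclear subunit, was at 213, 270 and 333 CPM in the High MB pigs and at 162, 218 and 288 CPM in the Low MB pigs. Low MB pigs 2, 4 and 6 again lay below every High MB pig, and its log2 fold change was 0.25 ± 0.16 (SE, n = 6 a group, edgeR adjusted p = 0.660). COX5A, a subunit on the matrix side, was at 234, 285 and 326 CPM in the High MB pigs and at 191, 265 and 297 CPM in the Low MB pigs. Its groups overlapped more, with a log2 fold change of 0.14 ± 0.13 (SE, n = 6 a group, edgeR adjusted p = 0.798). COX5B, which binds zinc, and the small subunits COX7B and COX8A had log2 fold changes of 0.15, 0.15 and 0.09. Without Low MB pig 6 the log2 fold change was 0.20 for COX7A1, 0.17 for COX7C, 0.14 for COX6A2, 0.06 for COX5A, COX5B and COX7B, 0.02 for COX7A2, -0.03 for COX8A and -0.10 for COX6A1.

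The ATP synthase has a soluble catalytic F1 part and a membrane F0 part with a ring of c subunits. All 9 of its genes had a positive log2 fold change, with a median of 0.12 and 1 unadjusted p under 0.05. When Low MB pig 6 was left out, 4 of the 9 were positive, with a median of -0.0017, and 0 had such a p. When High MB pig 2 was left out, 9 were positive, with a median of 0.19, and 1 had such a p. ATP5ME, subunit e of the membrane part, which takes part in the pairing of the enzyme into dimers, was at 38.5, 52.1 and 61.8 CPM (lowest, median and highest) in the High MB pigs and at 29.1, 36.0 and 57.3 CPM in the Low MB pigs. High MB pigs 3, 4 and 5 and Low MB pig 1 were at 57.3 CPM or more, Low MB pigs 2, 4 and 6 lay below every High MB pig, and the others lay between. ATP5ME was 1.31-fold higher in High MB, a log2 fold change of 0.39 ± 0.18 (SE, n = 6 a group) with a 95% interval of 0.0073 to 0.77, an unadjusted p of 0.0463 and an adjusted p of 0.578 by edgeR. The exact two-sided permutation test gave p = 0.0693. Low MB pig 6 was close to Low MB pigs 2 and 4 in this gene, and the log2 fold change without it was 0.33.

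ATP5F1A, the alpha subunit of F1, had the highest CPM of the 31 genes, at 756, 875 and 1025 CPM in the High MB pigs and 497, 884 and 984 CPM in the Low MB pigs. The medians differed little, and the lowest Low MB pigs were pig 6 and pig 5 (691 CPM). Its log2 fold change was 0.11 ± 0.17 (SE, n = 6 a group, edgeR adjusted p = 0.884), and -0.0017 without Low MB pig 6. ATP5PF, coupling factor 6 of the stalk, was at 89.0, 118 and 147 CPM in the High MB pigs and 76.0, 106 and 131 CPM in the Low MB pigs, with overlapping groups. Its log2 fold change was 0.17 ± 0.16 (SE, n = 6 a group, edgeR adjusted p = 0.791). The gamma and delta subunits of F1, ATP5F1C and ATP5F1D, had log2 fold changes of 0.015 and 0.02, and the stalk subunits ATP5PB and ATP5PO had 0.03 and 0.12.

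The c ring is built from identical mature proteins encoded by separate genes, of which ATP5MC1 and ATP5MC3 were measured. ATP5MC1 was at 140, 192 and 257 CPM in the High MB pigs and 100.3, 192 and 221 CPM in the Low MB pigs. ATP5MC3 was at 82.3, 100.4 and 138 CPM in the High MB pigs and 48.2, 107 and 124 CPM in the Low MB pigs. Both genes had overlapping groups and their lowest value in Low MB pig 6, and ATP5MC3 there was 2.86-fold below its highest pig, the widest range of the 31 genes. Their log2 fold changes were 0.18 ± 0.19 and 0.13 ± 0.21 (SE, n = 6 a group, edgeR adjusted p = 0.819 and 0.885). They were 0.06 and -0.0087 without Low MB pig 6, beside 0.09 for ATP5PF, 0.05 for ATP5PO, -0.04 for ATP5PB and -0.08 for both ATP5F1C and ATP5F1D. ATP5MC1 had 1 near copy in the genome by the limits given for CYCS, and its counts are uncertain for that reason.

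Over the 13 genes not given here by pig, the mean ran from 31.3 CPM (COX8A) to 322 CPM (UQCRFS1), the log2 fold change from -0.0066 (SDHC) to 0.15 (COX5B) and the unadjusted p from 0.359 (ATP5PO) to 0.977 (SDHC) by edgeR. Every pig held at least 680 counts of each of the 31 genes.

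Levels of different genes can be compared only per length, which was possible for the 20 genes with a RefSeq exon length. By the summed length of all annotated exons COX7A1 had the highest level, at 603 ± 94.3 (SD, n = 6) CPM per kilobase in High MB pigs and 497 ± 107 in Low MB pigs, followed by ATP5F1A (479 ± 60.9 and 444 ± 104) and COX5B (444 ± 108 and 399 ± 94.9). Per kilobase, COX7A1 was above ATP5F1A in 6 of 6 High MB pigs and 5 of 6 Low MB pigs, and ATP5F1A was above COX5B in 4 of 6 and 5 of 6. The gap between ATP5F1A and COX5B was smaller than their spread over pigs in both groups. COX7A2 was the lowest, at 46.9 ± 15.9 and 42.3 ± 12.6 CPM per kilobase, below ATP5F1C (96.1 ± 13.2 and 95.1 ± 18.6). The order at the top depended on the length used. COX7C has 1457 bases of annotated exon but 439 in the 1 RefSeq transcript chosen for it, and by transcript length its mean came first, at 619 ± 99.5 and 519 ± 121 CPM per kilobase, above COX7A1, whose lengths are equal. The gap between COX7C and COX7A1 was smaller than their spread over pigs in both groups. The succinate dehydrogenase genes were nearly level in pairs, SDHB and SDHD at 226 and 205 CPM per kilobase in High MB pigs and SDHA and SDHC at 138 and 135.

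**Figure D3:**
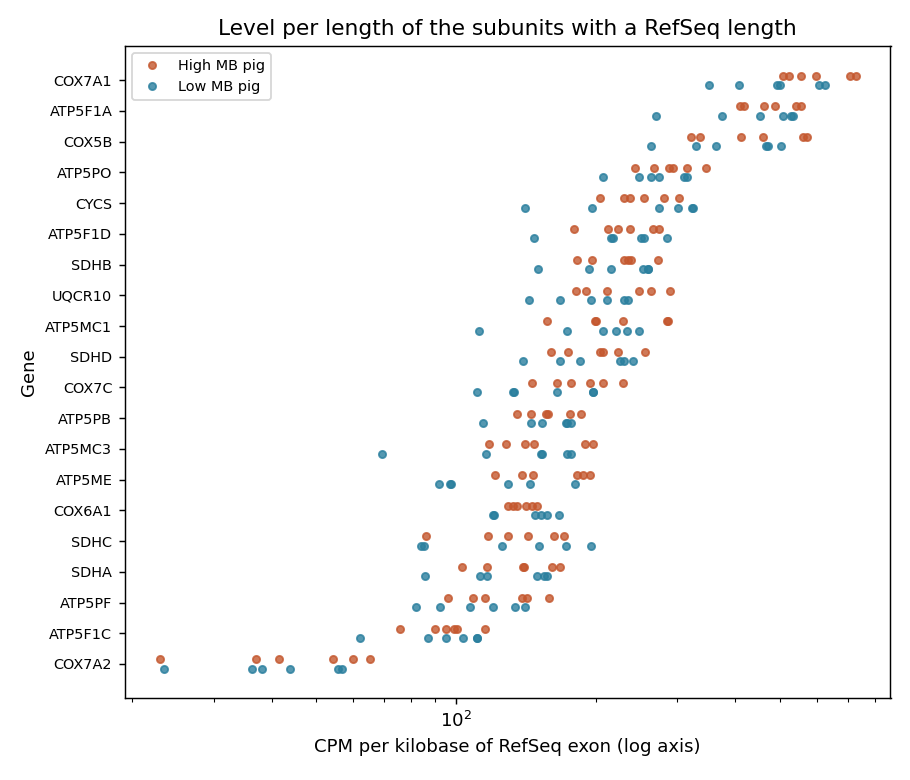
Each point is 1 pig's CPM per kilobase of RefSeq exon on a log axis, for the 20 genes with a length, High MB pigs above and Low MB pigs below each gene's line. By this length COX7A1 lies at the top and COX7A2 at the bottom, whereas by transcript length COX7C would lie above COX7A1 (619 against 603 on average in High MB), and within each gene the points of both groups overlap.

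The muscle isoforms were set against the general ones within each library, where no scaling between pigs is needed. The count ratio of COX6A2 to COX6A1 was 3.49 ± 0.607 in High MB (SD, n = 6, from 2.84 to 4.10) and 2.93 ± 0.906 in Low MB (SD, n = 6, from 2.07 to 4.31). Low MB pig 5 had the highest ratio of all and Low MB pigs 2, 3, 4 and 6 the lowest, and the exact two-sided permutation test of the log2 ratio gave p = 0.177 (0.532 adjusted over the 3 ratios). The log2 difference was 0.29 in all pigs, 0.030 among deep libraries (exact permutation p = 1) and 0.56 among standard ones (exact permutation p = 0.0571). The ratio of COX7A1 to COX7A2 was 9.83 ± 3.65 in High MB (SD, n = 6) and 8.40 ± 1.14 in Low MB (SD, n = 6), and High MB pig 6 alone had 16.8 where the other pigs had 6.48 to 10.4. It did not pass either, with a log2 difference of 0.17 and p = 0.496 by the exact permutation test (0.656 adjusted). Without High MB pig 6 that difference was 0.00011, and it was 0.53 among deep and 0.038 among standard libraries.

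Per kilobase of exon, COX7A1 exceeded COX7A2 by 14.1 ± 5.25 times in High MB pigs and 12.1 ± 1.64 times in Low MB pigs (SD, n = 6 each). The most constant ratio was that of ATP5MC1 to ATP5MC3, with 1.88 ± 0.116 in High MB and 1.85 ± 0.131 in Low MB (SD, n = 6 each, exact permutation p = 0.656, adjusted 0.656). Every pig lay between 1.70 and 2.08, and the highest ratio was that of Low MB pig 6, in which both genes were at their lowest level. The ratios with ATP5MC2 could not be computed.

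The subunit genes moved together from pig to pig. Over the 12 pigs the median Pearson correlation of log2 CPM between 2 of the 31 genes was 0.83 (465 pairs), and it was 0.71 over the 11 pigs without Low MB pig 6. The correlation of each gene with the mean of the other 30 was lowest for COX6A1 (0.49), CYCS (0.67) and ATP5ME (0.68) and highest for ATP5PO (0.98). The median over the 13342 other genes with the mean of the 31 was -0.05. Being a median of values of both signs, it does not show how many of them correlate as strongly. Without Low MB pig 6 the same 2 genes stayed lowest, COX6A1 at 0.22 and CYCS at 0.31, and ATP5PO stayed highest at 0.97. Within the groups the median pair correlation was 0.87 over the 6 High MB pigs and 0.87 over the 6 Low MB pigs (0.69 without pig 6). These values describe genes that share library, depth and scaling in each pig, and carry no test.

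**Figure D4:**
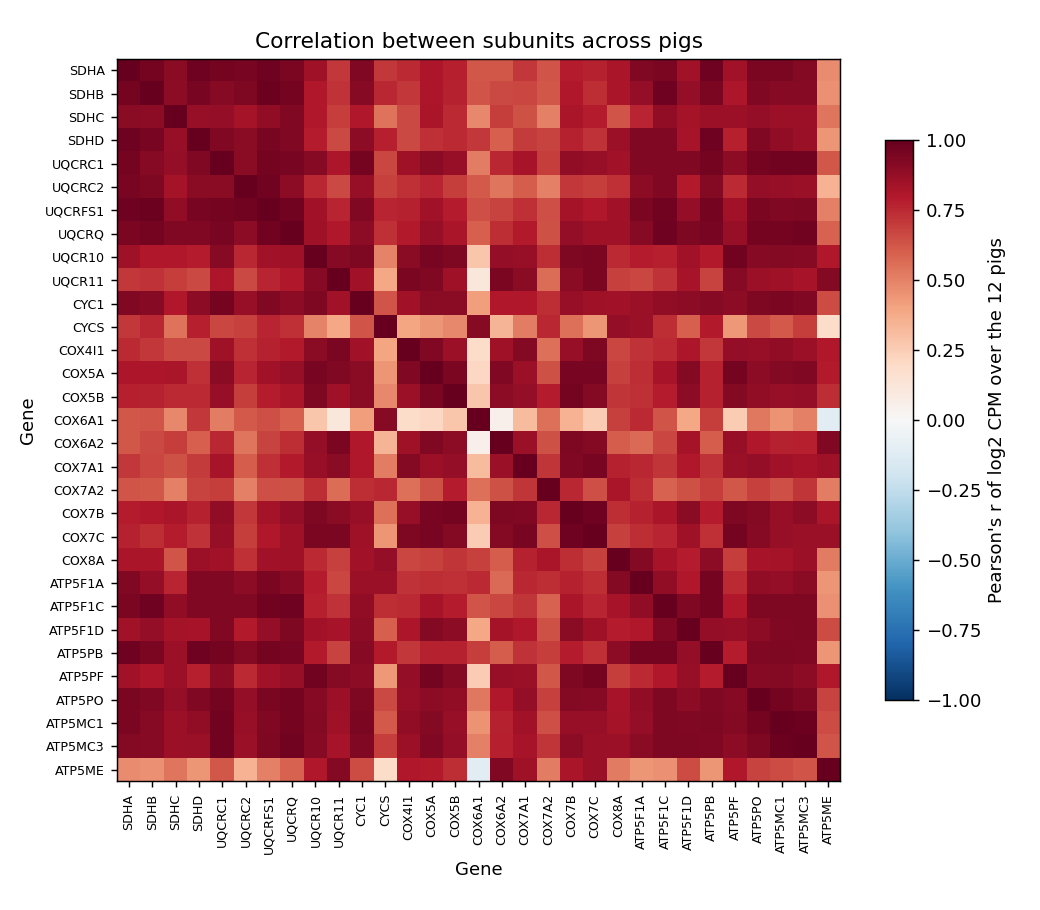
Colours give Pearson's r of log2 CPM over the 12 pigs for each pair of the 31 genes, ordered by complex. Most of the square is deep red (median 0.83), with paler rows for COX6A1, CYCS and ATP5ME, and the lowest pair is COX6A1 with ATP5ME (-0.11).

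The spread between pigs was described by the standard deviation of log2 CPM, whose median over the 31 genes was 0.23 in High MB and 0.33 in Low MB, beside 0.31 in both groups over all genes tested, and without Low MB pig 6 it was 0.21 in Low MB. It was smaller in High MB than in Low MB for 29 of the 31 genes (51.4% of all genes tested), and for 11 of them when Low MB pig 6 was left out (50.1%). From the lowest to the highest pig the level of a gene changed 1.96-fold in the median.

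Other genes of the same complexes did not pass the test either. Of 63 listed (further subunits, an inhibitor, assembly factors, mitochondrially encoded subunits and regulators), 47 had a row and 46 were tested, 0 were called, 1 had an unadjusted p under 0.05 by edgeR and 26 had a positive log2 fold change, with a median of 0.0085. That 1 gene was LYRM7, an assembly factor of the Rieske protein, at 5.17 ± 1.09 CPM in High MB and 7.05 ± 1.09 CPM in Low MB (SD, n = 6 each), with a log2 fold change of -0.45 ± 0.17 (SE, edgeR unadjusted p = 0.0181, adjusted p = 0.563). Among the 6 genes tested of the further subunits and the inhibitor, 5 were positive, with NDUFA4, a subunit associated with complex IV, at 0.20 ± 0.15 and the supernumerary subunit ATP5MK at 0.20 ± 0.15 (SE, n = 6 a group, edgeR adjusted p = 0.715 and 0.732). When Low MB pig 6 was left out they were at 0.11 and 0.12, and the median of these 6 genes went from 0.18 to 0.09. The assembly factors of complex II (SDHAF2, -0.12), complex III (4 of 6 negative, UQCC2 at -0.21), complex IV (9 of 15 positive, COX11 at -0.26 and COX15 at -0.21) and the ATP synthase (3 of 4 positive, ATPAF2 at 0.21 and ATPAF1 at 0.18) had log2 fold changes of mixed sign, and none passed the test. When Low MB pig 6 was left out, SDHAF2 was at -0.18 and ATPAF1 at 0.11, and when High MB pig 2 was left out, UQCC2 was at -0.13, ATPAF1 at 0.31 and 6 of the 46 genes had an unadjusted p under 0.05 by edgeR, with 0 called. In that last fit 1391 of all 13454 genes tested had such a p.

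Of the 6 mitochondrially encoded subunits of these complexes, 5 had a positive log2 fold change, with a median of 0.12, led by MT-CO1 at 0.19 ± 0.18 and MT-CO2 at 0.20 ± 0.19 (SE, n = 6 a group, edgeR adjusted p = 0.797 and 0.800). When High MB pig 2 was left out, 6 of 6 were positive, with a median of 0.22 and both of these at 0.28. They did not share the pattern of the nuclear genes in Low MB pig 6. There the median deviation of log2 CPM from the mean of the 12 pigs was -0.06 for the mitochondrially encoded genes and -0.60 for the 31 nuclear ones, while High MB pig 6 had -0.59 and -0.13. Of the 8 regulators, 2 had a positive value and 0 passed, with GABPA, a subunit of an ETS factor, at -0.15 ± 0.10 (SE, n = 6 a group, edgeR adjusted p = 0.678) and NRF1 at -0.10 ± 0.11 (SE, n = 6 a group, edgeR adjusted p = 0.841).

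Fibre type markers were read beside these values. The 6 slow fibre markers with a row (TNNT1, TNNI1, TNNC1, MYL2, MYL3 and ATP2A2) all had a positive log2 fold change, with a median of 0.54, 5 unadjusted p under 0.05 and 0 called (smallest adjusted p 0.563, edgeR). They summed to 6433 to 12555 CPM in High MB pigs and 4842 to 8404 CPM in Low MB pigs. The 6 fast fibre markers with a row all had a negative one, with a median of -0.16, 1 unadjusted p under 0.05 and sums of 26826 to 57672 CPM in High MB and 45559 to 63025 CPM in Low MB. Without High MB pig 2, 3 of these 6 were positive (TNNT3, TNNI2 and TNNC2), the median was -0.03 and 0 had such a p, while the slow markers were positive in 6 of 6 with a median of 0.64. In Low MB pig 6 the slow markers deviated by -0.48 in the median and the fast markers by 0.07, and its skeletal muscle sum (101240 CPM) was within the range of the other pigs. In Low MB pigs 1 and 3 the 31 subunit genes were above the mean of the 12 pigs (0.22 in each) while the slow markers were below it (-0.23 and -0.09).

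**Figure D5:**
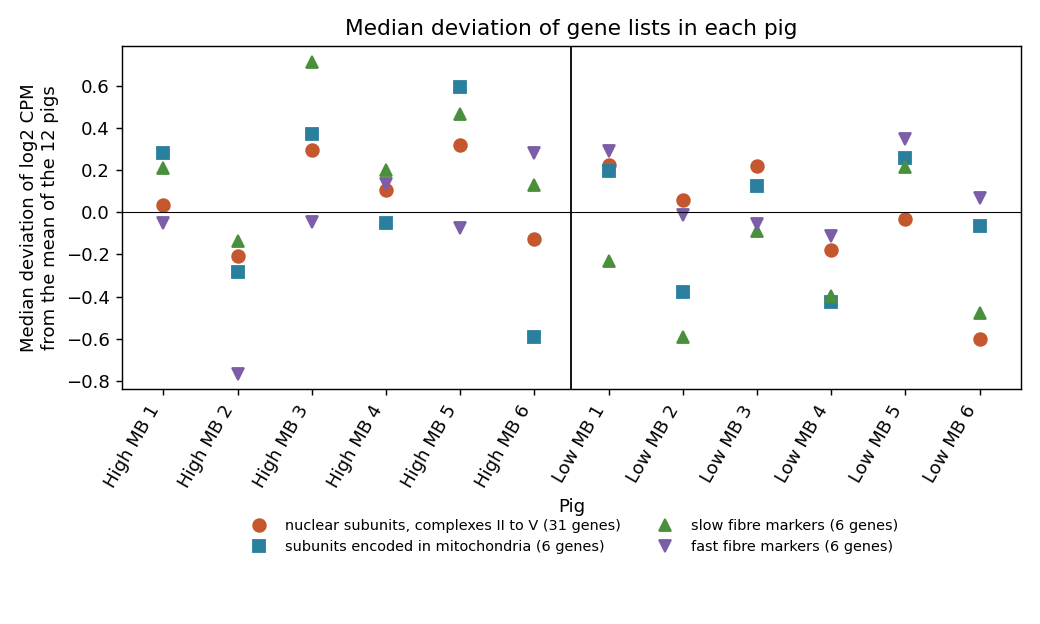
The median deviation of log2 CPM from the mean of the 12 pigs is plotted for each pig and list: 31 nuclear subunit genes (circles), 6 mitochondrially encoded subunits (squares), 6 slow fibre markers (upward triangles) and 6 fast fibre markers (downward triangles). Low MB pig 6 has the lowest circle, at -0.60, with its square near 0, while the slow markers are lowest in Low MB pig 2, at -0.59.

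Markers of other cells were read in the same way. Of those tested, 6 of 7 for adipocytes (median log2 fold change 0.85), 6 of 6 for fibroblasts (0.65), 5 of 5 for macrophages (0.93) and 4 of 4 for endothelium (0.26) had a positive value, and 0 were called by edgeR, with 2, 3, 3 and 0 at an unadjusted p under 0.05. Their sums per pig ran, in High MB and Low MB, over 375 to 756 and 405 to 606 CPM for adipocytes, 630.1 to 1118 and 326 to 828 CPM for fibroblasts, 32.1 to 103 and 19.9 to 41.6 CPM for macrophages, and 114 to 157 and 70.1 to 175 CPM for endothelium, with no marker at 0 in all pigs. The skeletal muscle markers were negative in 5 of 6 (median -0.21). Without High MB pig 2 the median was 0.49 for macrophages (CD68 at 0.07 and CD14 at 0.09, with 1 of 5 at an unadjusted p under 0.05) and -0.09 for skeletal muscle (CKM at -0.01), beside 0.86 for adipocytes, 0.60 for fibroblasts and 0.27 for endothelium. The 31 subunit genes had 29 positive values and a median of 0.19 without that pig, beside 6607 of 13454 and -0.006 over all genes tested. The part of fibre type and of other cells in the values of the subunit genes was not tested.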

How the data were processed

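Longissimus dorsi RNA of 12 pigs was sequenced in paired reads, with 1 library per pig. The authors trimmed the reads with Trim Galore, mapped them with HISAT2 to the Sscrofa11.1 genome and deposited the raw counts of HTSeq per gene, not normalized; the annotation release and strand setting are not given in the sources used here, so reads of overlapping or antisense genes cannot be told apart. Between 47.0% and 48.2% of uniquely aligned reads per pig had been assigned to a gene, and these alone entered library sizes. The deposited counts per transcript were not used.

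Groups came from the sample titles. The members and gene lists were chosen with earlier results of these data known. Genes were tested with edgeR 4.0.16 in R 4.3.3 (TMM, filterByExpr, quasi-likelihood test, no covariate), with Benjamini-Hochberg adjustment over all genes tested. The fit was first tested on simulated data. The standard error is the log2 fold change over the root of the F statistic. CPM used the TMM factors, and log2 CPM a prior count of 2. DESeq2 1.42.0, the tool of the study, was an alternative. Ratios used exact permutation of all 924 regroupings. Adjustment covered 3 ratios, since those with ATP5MC2 had no row.

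Values by pig are given for the 10 members with the smallest p, those of the ratios and the one with the highest mean CPM in each complex, and up to 2 genes with the smallest p are named from each other list. Names came from a table of Ensembl symbols, and positions, exon lengths and promoters from RefSeq. Near copies of the 20 matched transcripts were sought with blastn 2.17.0, and those of UQCRC1, UQCRC2, UQCRFS1, UQCRQ, UQCR11, CYC1, COX4I1, COX5A, COX6A2, COX7B and COX8A were not. Gene counts of pigs in the same group gave a chi-square per degree of freedom of 61.7 to 688 (30 pairs, where sampling noise alone gives about 1), so no library repeated another. The study describes sequencing lanes shared by several libraries and fattening and slaughter batches, but the labels do not assign them to pigs, so no fit held such a term. Depth classes came from the count totals. The p-values measure the spread between these pigs.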

Additional observations from a re-analysis of the deposited data

How the results depend on the processing

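No member was called under any of the alternatives run, and the pathway genes stayed at 0 called; in all genes, DESeq2 called 29 and the deep libraries alone 1. The members with an unadjusted p under 0.05 numbered 4 with upper quartile scaling and with myoglobin content as the predictor, 1 without the filter and within the standard libraries, and 0 within the deep ones. Over all genes tested the counts were 1115 of 13373, 948 of 13373, 1533 of 19220, 862 of 13546 and 454 of 14465, in that order. With 1 pig left out such members numbered 0 to 5: 5 without High MB pig 2, 4 without Low MB pig 1 or 3, 3 without Low MB pig 5, 1 without High MB pig 1 or 6, and 0 without High MB pigs 3, 4 or 5 or Low MB pigs 2, 4 or 6. Over all genes that count also moved, from 844 of 13469 (without High MB pig 5) to 1454 of 13455 (without Low MB pig 6). It was 1391 of 13454 without High MB pig 2. The members with a positive log2 fold change numbered 17 to 31 with 1 pig left out, 17 without Low MB pig 6 (all genes from 6225 of 13496 to 6979 of 13485). The log2 ratio of COX6A2 to COX6A1 (0.29) was 0.20 to 0.41 with 1 pig left out, the highest without Low MB pig 5 (exact permutation p = 0.0455, not adjusted), 0.030 in the deep libraries and 0.56 in the standard ones. That of COX7A1 to COX7A2 (0.17) was 0.00011 without High MB pig 6, up to 0.27 with another pig left out, 0.53 in the deep libraries and 0.038 in the standard ones, and that of ATP5MC1 to ATP5MC3 was -0.020 within the standard libraries.

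Of 744 log2 fold changes of members under alternatives, 49 changed sign. With 1 pig left out, the ranges that crossed 0 were -0.00047 to 0.19 (SDHA), -0.066 to 0.10 (SDHB), -0.11 to 0.13 (SDHC), -0.041 to 0.13 (SDHD), -0.0097 to 0.16 (UQCRFS1), -0.065 to 0.17 (UQCRQ), -0.18 to 0.036 (CYCS), -0.098 to 0.0096 (COX6A1), -0.026 to 0.15 (COX8A), -0.0017 to 0.18 (ATP5F1A), -0.082 to 0.098 (ATP5F1C), -0.077 to 0.11 (ATP5F1D), -0.043 to 0.098 (ATP5PB) and -0.0087 to 0.22 (ATP5MC3). SDHC was 0.0038 with RLE size factors, 0.057 with upper quartile scaling, 0.056 within the standard libraries, 0.016 with the 10 highest genes removed, 0.0202 with at least 10 counts in every pig, 0.0196 without High MB pig 2 and Low MB pig 4, and 0.0027 with DESeq2. Upper quartile scaling gave 0.012 for CYCS and 0.0065 for COX6A1, the deep libraries gave 0.016 for CYCS, 0.044 for COX6A1 and -0.24 for COX7A2, and the standard libraries gave -0.024 for SDHB, -0.011 for SDHD, -0.0070 for COX8A, -0.033 for ATP5F1C and -0.015 for ATP5PB. With the depth class as a covariate ATP5F1C was -0.0037. The causes were not tested.

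Pigs with the same number shared only that number: the correlations of their deviations ran from -0.21 to 0.14. With the number as a replicate block, 0 members were called, 3 had an unadjusted p under 0.05, 29 were positive and SDHC was 0.035. Of all genes, 6317 of 13373 were positive and 957 had an unadjusted p under 0.05 instead of 1132. The 3 log2 ratios had exact permutation p-values of 0.219, 0.344 and 0.531 in that pairing. The alternatives with ATP5MC2 could not be run. The 95% intervals of the members' log2 fold changes reached down to -0.48 and up to 0.77, which limits what 6 pigs a group could show, and 10 of the 41 genes were not measured.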
